A study of Mus musculus with 6 samples.

Results

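The 10 genes described here (Pgr, Greb1, Stc2, Nrip1, Igfbp4, Cxcl12, Ccnd1, Wnt4, Tgfa and Pdzk1) are classical targets of the estrogen receptor, known mainly from breast and uterus. They were chosen by name, and all 10 had a probe set among the 19938 genes measured. The cells were RW4, a line of mouse embryonic stem cells kept undifferentiated with leukemia inhibitory factor. There were 3 groups of 2 single-colour arrays: cells with no drug, whose induction system the labels call WT; cells with 1 µM 4-hydroxytamoxifen (4OHT), tied to an ERT2 system; and cells with 1 µM Shld1, tied to an FKBP system. Whether the treated cells carried an ERT2 or FKBP fusion, how long the drugs were given, and whether the arrays of a group came from separate cultures is not stated. If they did not, p-values measure only technical spread.

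The estrogen receptors ERα (Esr1) and ERβ (Esr2) are nuclear receptors that bind DNA when they hold estrogen, either directly at paired half-sites or through partner factors such as AP-1 and Sp1. 4OHT, the active form of the breast cancer drug tamoxifen, occupies the same ligand pocket and blocks or mimics estrogen depending on the cell. The ERT2 domain is a mutated ligand-binding domain of ERα that responds to 4OHT and hardly to estrogen. Shld1 has no known link to estrogen receptors, and stabilises proteins that carry a destabilised FKBP domain.

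The promoters of 3 members are shown because Stc2 and Igfbp4 were the members with the lowest signals in treated relative to untreated cells, and Greb1 is one of the best known direct receptor targets. Each window runs from 250 bases before to 50 bases after the annotated start, 5′ to 3′ on the gene's strand, from RefSeq on GRCm38.p6. Capitals mark the half-site GGTCA on either strand. Stc2 lies at chr11:31370012-31370311 (minus strand), Igfbp4 at chr11:99040994-99041293 (plus strand) and the upstream start of Greb1 at chr12:16800837-16801136 (minus strand).
Stc2: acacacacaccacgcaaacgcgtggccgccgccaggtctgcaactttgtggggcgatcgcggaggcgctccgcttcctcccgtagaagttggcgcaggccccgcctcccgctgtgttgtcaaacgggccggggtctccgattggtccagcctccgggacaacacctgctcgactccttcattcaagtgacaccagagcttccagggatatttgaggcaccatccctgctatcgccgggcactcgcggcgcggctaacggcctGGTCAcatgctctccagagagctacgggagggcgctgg
Igfbp4: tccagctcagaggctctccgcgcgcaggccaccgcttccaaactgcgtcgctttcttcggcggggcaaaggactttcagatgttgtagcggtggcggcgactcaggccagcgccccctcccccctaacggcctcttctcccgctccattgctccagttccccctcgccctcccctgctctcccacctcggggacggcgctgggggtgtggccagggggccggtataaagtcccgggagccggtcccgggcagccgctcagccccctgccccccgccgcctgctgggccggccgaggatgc
Greb1: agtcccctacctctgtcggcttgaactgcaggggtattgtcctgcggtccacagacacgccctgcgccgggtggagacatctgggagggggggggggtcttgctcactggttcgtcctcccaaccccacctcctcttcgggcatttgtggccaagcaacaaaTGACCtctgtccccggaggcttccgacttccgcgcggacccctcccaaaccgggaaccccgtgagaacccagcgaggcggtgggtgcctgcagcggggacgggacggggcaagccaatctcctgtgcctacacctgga

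Of the 10 members, 9 had entries in that table, with 12 windows of 300 bases. The full estrogen response element (GGTCA, any 3 bases, then TGACC), searched like the other motifs on both strands, was in 0 of the 12 windows and in 0.07% of all 32851 windows. Its half-site GGTCA, which the full element contains, was in 5 of the 12 windows against 40.5% of all. It lay at position 13 in Stc2 and, on the opposite strand, from -88 in Greb1. Igfbp4 had none in this window. The AP-1 motif TGANTCA was in 0 of the 12 windows (7.81% of all), the Sp1 motif GGGCGG in 6 (35.7% of all) and the ATF4-type motif TGATGNAA in 1, that of Nrip1 (3.97% of all). These matches describe letters in short windows and do not show binding.

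The estrogen receptor genes gave low signals. As a view of background, the 95th percentile of the mean log2 signal of 1027 olfactory receptor genes was 3.71, and 64.4% of all genes lay above it. Esr1 was at 4.01 and 3.98 on the untreated arrays, 3.88 and 4.10 with 4OHT, and 3.94 and 4.38 with Shld1, so the groups overlapped. All 6 of these values were above background, with a mean of 4.05. Esr2 was at 3.27 and 3.25 without drug, 3.80 and 3.39 with 4OHT, and 2.87 and 3.66 with Shld1. Its mean over the 6 arrays was below background, and 1 array, 4OHT replicate 1, was above it.

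Of the 10 members, 7 had a mean signal above background, and these were above it on all 6 arrays. Pgr, Greb1 and Cxcl12 were below it on all 6, which limits any difference that could be seen for them. Stem cell markers gave clear signals: Pou5f1, Sox2, Nanog, Klf4 and the rest of a list of 10 were all above background, from 7.07 to 12.1. Markers of other lineages also had means above it: 6 of 8 for endoderm, 3 of 5 for mesoderm, 4 of 5 for neural cells and 4 of 6 for trophoblast. The highest signals in these lists were 7.09, 4.76, 8.66 and 7.06, in that order. Whether some cells had differentiated was not tested. Of 6 epithelial and milk protein genes, 3 were above background on all 6 arrays: Epcam (7.63 to 7.98), Elf3 (6.51 to 7.10) and the milk protein gene Wap (4.16 to 4.56). Krt14 was above it on 2 arrays, and Csn2 and Krt5 on 0. In that list Krt14 (0.43, SE 0.17) and Elf3 (-0.39, SE 0.17) had an unadjusted p under 0.05 in limma with 4OHT (4.99% of all genes). Krt14 (0.42, SE 0.17) and Wap (0.36, SE 0.15) had one with Shld1 (4.34% of all genes), and 0 were called. Array medians ran from 4.203 to 4.322 and array SDs from 2.24 to 2.35. Signals spanned less on 4OHT replicate 1 (SD 2.29) and Shld1 replicate 2 (SD 2.24), called the narrower arrays here. Between the arrays of a group, log2 signals differed with an SD of 0.216 (untreated), 0.264 (4OHT) and 0.318 (Shld1).

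**Figure D1:**
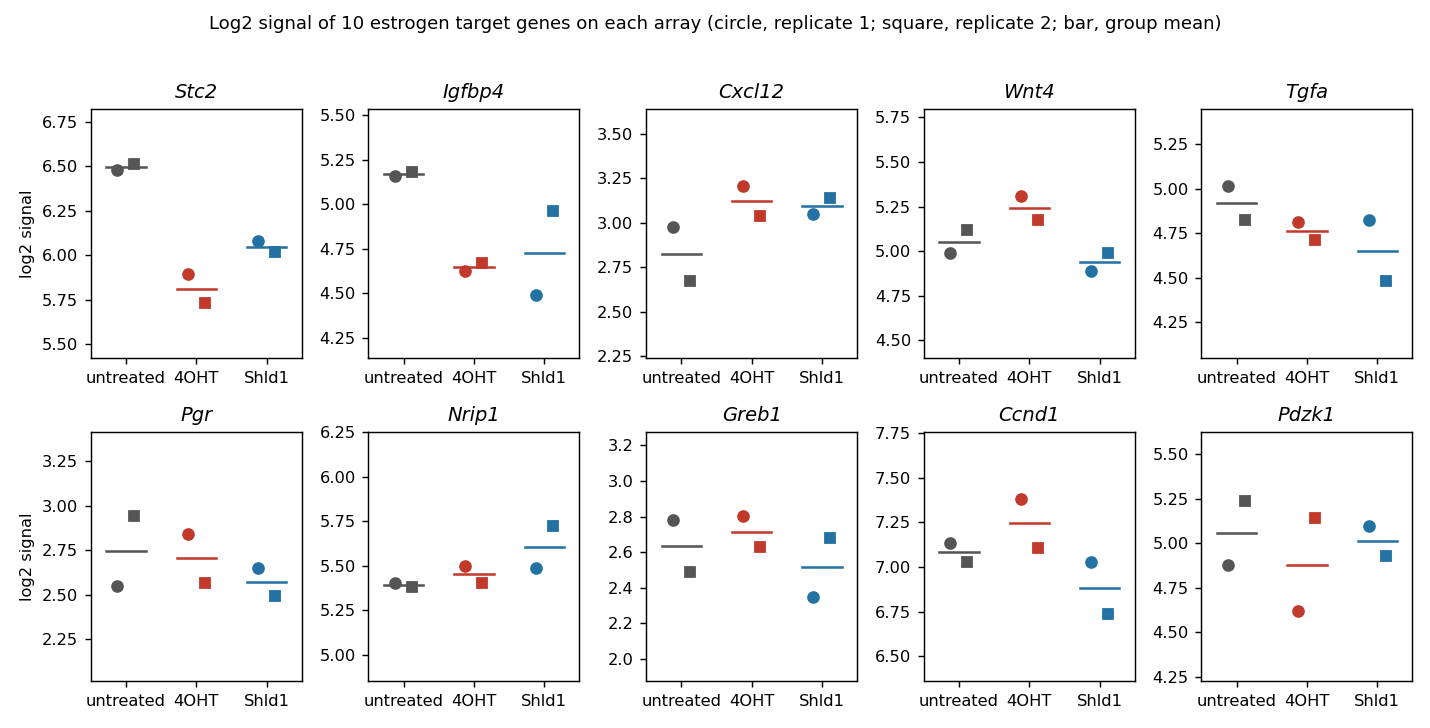
Each panel plots the log2 signal (vertical axis, a span of 1.4 in every panel) of 1 member on the 6 arrays by group; circles are replicate 1, squares replicate 2 and bars the group mean. Both treated groups lie below both untreated arrays for Stc2 and Igfbp4, while the groups of the other members overlap or lie close together.

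Stc2 had the most distinct values among the members with 4OHT. It encodes stanniocalcin 2, a secreted glycoprotein that is induced by estrogen in breast cancer cells and, in many cells, by stress of the endoplasmic reticulum. Its log2 signal was 6.48 and 6.51 on the untreated arrays, 5.89 and 5.73 with 4OHT, and 6.08 and 6.02 with Shld1. All 4 treated arrays lay below both untreated arrays, and both 4OHT arrays below both Shld1 arrays. The difference between 4OHT and untreated was -0.68 (SE 0.14, 95% interval -0.998 to -0.368), a linear level 0.623 times that of untreated cells (interval 0.501 to 0.775). With Shld1 it was -0.45 (SE 0.14, interval -0.76 to -0.13), or 0.733 times. Stc2 had the smallest p of the members in both comparisons, at rank 8 of 19938 genes with 4OHT (limma, unadjusted p = 0.000723) and at rank 135 with Shld1 (unadjusted p = 0.0101). Neither passed the Benjamini-Hochberg adjustment over all genes (limma, adjusted p = 0.96 and 0.999). Over all alternatives the difference with 4OHT ran from -0.76 to -0.60 and with Shld1 from -0.48 to -0.41, always negative. Without untreated replicate 2, the unadjusted p with Shld1 was 0.0623.

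The comparisons with untreated cells share the same 2 control arrays, so their values are not independent. For Stc2 these arrays differed by 0.03. The agents themselves, compared at the same dose, differed by -0.23 (4OHT minus Shld1, SE 0.14, interval -0.55 to 0.08; limma, adjusted p = 0.897). The interval includes no difference and also a 4OHT level 0.683 times that with Shld1.

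Igfbp4 came next. It encodes a secreted protein that binds insulin-like growth factors and restrains them. The log2 signal was 5.16 and 5.18 without drug, 4.62 and 4.67 with 4OHT, and 4.49 and 4.96 with Shld1. The 4OHT arrays were close together and below both untreated arrays; the Shld1 arrays were also below but far apart, and Shld1 replicate 2 lay nearest to untreated. The difference was -0.52 with 4OHT (SE 0.17, interval -0.91 to -0.14; limma, unadjusted p = 0.0129, adjusted p = 0.96) and -0.44 with Shld1 (SE 0.17, interval -0.83 to -0.06; limma, unadjusted p = 0.0281, adjusted p = 0.999). Linear levels were 0.696 and 0.735 times that of untreated cells. Without Shld1 replicate 1 the Shld1 difference was -0.21, and without Shld1 replicate 2 it was -0.68. With each array centred on its 75th percentile it was -0.40 (limma, unadjusted p = 0.0935). With 4OHT the unadjusted p was 0.0623 without 4OHT replicate 1, 0.0539 without untreated replicate 2 and 0.0663 with each array centred on its 75th percentile. Between the agents Igfbp4 differed by -0.08 (SE 0.17, interval -0.46 to 0.31).

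Igfbp4 is also a gene of stromal cells. Of 9 measured fibroblast markers 5 were above background, and the median of the list ran from 3.56 to 3.98 over the 6 arrays. Thy1 (5.28 to 6.11), Col1a1 (4.86 to 5.30), Col1a2 and Col3a1 were above background on all 6 arrays and Pdgfrb on 4. Lum, Dcn, Postn and S100a4 were above it on 0 arrays. The fibroblast list had a median difference of 0.11 with 4OHT and -0.01 with Shld1. With Shld1 1 of the 9 (S100a4, lower) had an unadjusted p under 0.05 (4.34% of all genes). Their part in the values of Igfbp4 was not tested. In bulk RNA, fewer cells of a type and less RNA per cell cannot be told apart.

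Cxcl12, Wnt4 and Tgfa are the other secreted or shed signals among the members. Cxcl12, a chemokine that guides cells bearing Cxcr4, was at 2.98 and 2.67 without drug, 3.20 and 3.03 with 4OHT, and 3.05 and 3.14 with Shld1. Its treated arrays were all above both untreated arrays, but all 6 lay below background. The differences were 0.29 with 4OHT (SE 0.16, interval -0.06 to 0.65; limma, adjusted p = 0.96) and 0.27 with Shld1 (SE 0.16, interval -0.09 to 0.62; limma, adjusted p = 0.999). Without untreated replicate 2 they were 0.142 and 0.116, and without untreated replicate 1 0.446 and 0.420.

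Wnt4, a Wnt ligand that acts downstream of progesterone in the breast, was at 4.99 and 5.12 without drug, 5.31 and 5.18 with 4OHT, and 4.89 and 4.99 with Shld1. The 4OHT arrays were above both untreated arrays and the Shld1 arrays below them, the latter by under 0.001 at the closest. The differences from untreated were 0.19 (SE 0.14) and -0.12 (SE 0.14), and between the agents 0.31 (SE 0.14, interval -0.01 to 0.63; limma, adjusted p = 0.894). These values come from probe set 10509273. A dimmer probe set of the gene, 10509267, had means of 3.36 ± 0.07 without drug, 2.94 ± 0.11 with 4OHT and 3.20 ± 0.60 with Shld1 (SD, n = 2), all below background, and with 4OHT it went the other way. With the mean of both probe sets the difference from untreated was -0.113 with 4OHT and -0.139 with Shld1, and that between the agents was 0.026.

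Tgfa, a ligand of the receptor Egfr, was at 5.02 and 4.83 without drug, 4.81 and 4.71 with 4OHT, and 4.82 and 4.48 with Shld1. All treated arrays were below both untreated arrays, the closest pair differing by -0.01 with 4OHT and -0.002 with Shld1. The differences were -0.16 (SE 0.16, interval -0.53 to 0.20) and -0.27 (SE 0.16, interval -0.63 to 0.10). Leaving out single arrays gave -0.256 (without untreated replicate 2) to -0.066 (without untreated replicate 1) with 4OHT, and -0.442 (without Shld1 replicate 1) to -0.097 (without Shld1 replicate 2) with Shld1. Egfr itself was below background, with a mean of 3.58 over the 6 arrays.

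Among the members that act in the nucleus, Pgr and Greb1 overlapped between groups. Pgr, the progesterone receptor and the textbook marker of estrogen receptor activity, was at 2.55 and 2.94 without drug, 2.84 and 2.57 with 4OHT, and 2.65 and 2.49 with Shld1, with overlapping groups below background. The difference with 4OHT was -0.04 (SE 0.18, interval -0.44 to 0.36). Greb1, a cofactor of ERα in breast cancer cells, was at 2.78 and 2.49 without drug, 2.80 and 2.63 with 4OHT, and 2.35 and 2.68 with Shld1. It too overlapped between groups below background, with a 4OHT difference of 0.08 (SE 0.17, interval -0.31 to 0.47).

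Nrip1, also called RIP140, is a corepressor that is itself induced by estrogen and binds the receptor. Its signal was 5.40 and 5.38 without drug, 5.50 and 5.41 with 4OHT, and 5.49 and 5.73 with Shld1. The treated arrays were above both untreated arrays, by only 0.004 at the closest with 4OHT. The differences were 0.06 (SE 0.15, interval -0.27 to 0.39) and 0.21 (SE 0.15, interval -0.11 to 0.54). With Shld1 it was 0.333 without Shld1 replicate 1 and 0.095 without Shld1 replicate 2.

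Ccnd1, the cyclin D1 gene that couples growth signals to entry into the cell cycle, was at 7.14 and 7.03 without drug, 7.38 and 7.11 with 4OHT, and 7.03 and 6.74 with Shld1. The 4OHT and untreated arrays overlapped; the Shld1 arrays were below the untreated ones, by under 0.001 at the closest. The differences from untreated were 0.16 (SE 0.16) and -0.20 (SE 0.16). Between the agents the difference was 0.36 (SE 0.16, interval -0.004 to 0.73; limma, unadjusted p = 0.0523, adjusted p = 0.891), and both 4OHT arrays were above both Shld1 arrays. It was 0.225 without 4OHT replicate 1, 0.219 without Shld1 replicate 2 and 0.080 without both of these narrower arrays. Pdzk1, a scaffold protein that anchors transporters, was at 4.88 and 5.24 without drug, 4.62 and 5.14 with 4OHT, and 5.09 and 4.93 with Shld1. Its replicates differed by 0.36 without drug and 0.52 with 4OHT, more than its group means did, and by 0.17 with Shld1. Its differences were -0.18 (SE 0.20, interval -0.63 to 0.27) and -0.04 (SE 0.20, interval -0.49 to 0.40).

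**Figure D2:**
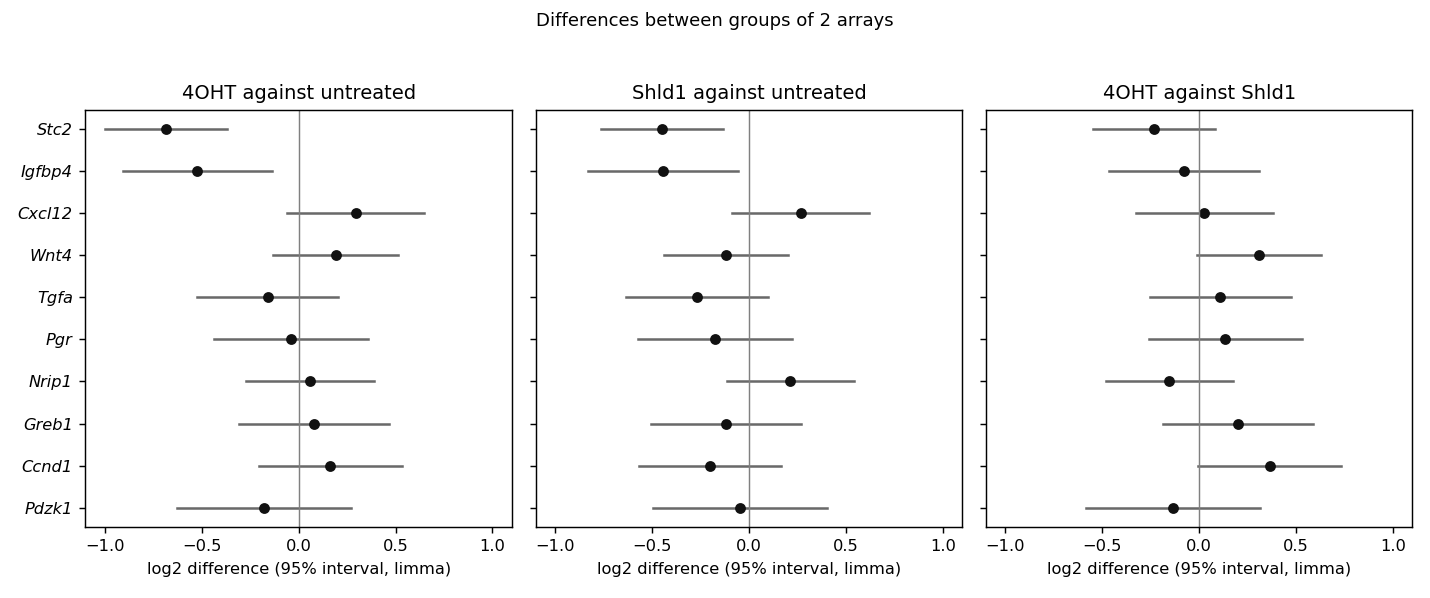
Points are log2 differences of the 10 members in 3 comparisons and lines their 95% intervals from limma (horizontal axis, log2). The intervals of Stc2 and Igfbp4 lie below 0 for either agent against untreated, those of the other 8 members include 0, and none of the 10 intervals between the agents excludes 0.

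No member was called in any comparison. With 4OHT, limma called 0 of 10 members and 0% of the 19938 genes at an adjusted p under 0.05; at an unadjusted p under 0.05 there were 2 members, Stc2 and Igfbp4, against 4.99% of all genes. With Shld1, 0 members and 0% of genes were called, and the same 2 genes had an unadjusted p under 0.05, against 4.34% of all genes. Without untreated replicate 2 this count was 0 with Shld1 and 1 with 4OHT; it was also 1 with Shld1 without untreated replicate 1, and 1 with 4OHT without 4OHT replicate 1. Without Shld1 replicate 1 the Shld1 difference was -0.21 for Igfbp4 and -0.442 for Tgfa. Without both narrower arrays Stc2 and Igfbp4 differed by -0.765 and -0.499 with 4OHT, and by -0.417 and -0.680 with Shld1. Between the agents 0 members and 0% of genes were called, and 0 members against 5.6% of genes had an unadjusted p under 0.05. Leaving out single arrays, the difference of Ccnd1 between the agents ran from 0.219 to 0.508.

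Arrays of the groups compared were fully apart at 6 of 10 members with 4OHT, against 37.7% of all genes, at 7 of 10 with Shld1, against 32.5%, and at 3 of 10 between the agents, against 30.5%. With Shld1, 3 of the 7 (Ccnd1, Wnt4 and Tgfa) were apart by under 0.01. The median difference of the members was 0.01 with 4OHT (-0.01 over all genes), -0.15 with Shld1 (-0.004 over all genes) and 0.07 between the agents (-0.004 over all genes). With 4OHT 5 members were higher and 5 lower, so the 10 genes had no common direction; with Shld1 2 were higher and 8 lower. The 95% interval lay within 2-fold in each of the 3 comparisons for the 7 members above background.

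**Figure D3:**
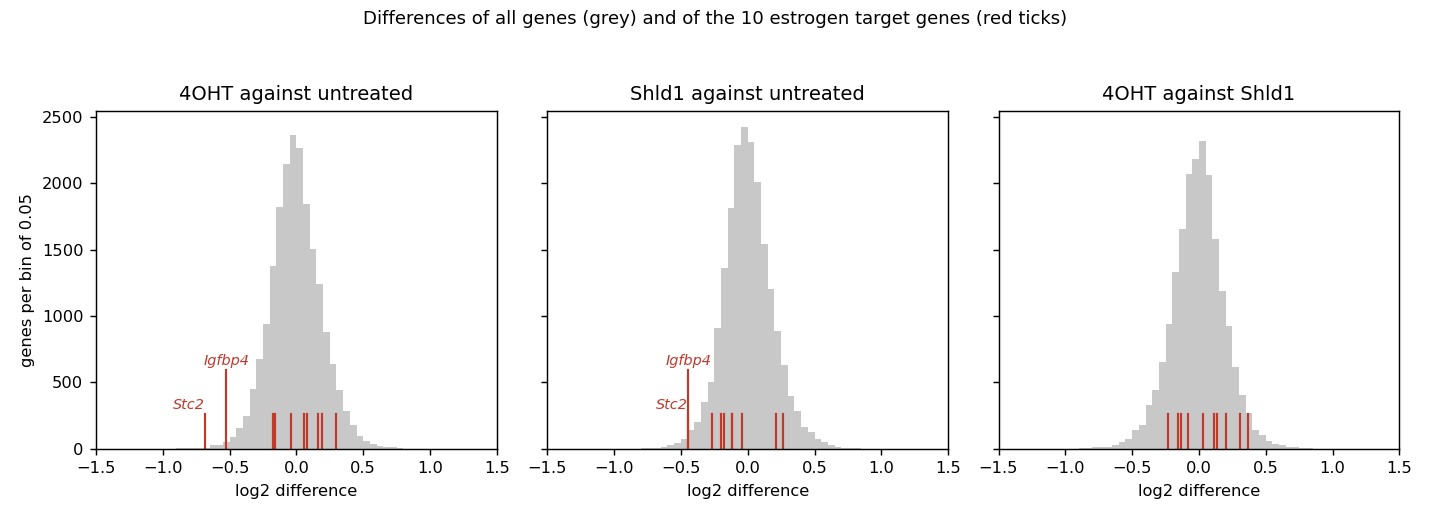
Grey bars count all 19938 genes by log2 difference in bins of 0.05, with values past 1.5 gathered in the end bins, and red ticks mark the 10 members (a taller tick for Igfbp4 in the first 2 panels, for its label). With 4OHT, Stc2 at -0.68 and Igfbp4 at -0.52 lie in the lower tail and the other 8 in the body; in the comparison of the agents all 10 lie between -0.23 and 0.36.

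In the same fit, 58 genes had a 4OHT difference at least as large in either direction as that of Stc2, itself included, and 235 as large as that of Igfbp4. With Shld1 these counts were 514 and 542.

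A wider list of 24 other estrogen-responsive genes had 21 measured, 15 of them above background. With 4OHT limma called 0 of 21, and 3 were higher and 18 lower than in untreated cells; with Shld1 6 were higher and 15 lower. An unadjusted p under 0.05 was found with 4OHT for 4 of the 21 (4.99% over all genes), of which 2 were higher and 2 lower. Myc, a growth regulator induced early by estrogen, was at 5.08 and 5.39 without drug, 5.86 and 5.68 with 4OHT, and 5.54 and 5.58 with Shld1, above both untreated arrays on all 4 treated ones (4OHT difference 0.53, SE 0.16). Rerg, a growth-inhibiting small GTPase, differed by 0.60 (SE 0.19), but its mean over the arrays was below background. Vegfa, the angiogenic factor, differed by -0.42 (SE 0.14). Ier3, an early response gene, differed by -0.46 with 4OHT (SE 0.16) and -0.52 with Shld1 (SE 0.16). With Shld1 it was the 1 gene of the list with an unadjusted p under 0.05 (4.34% over all genes). The median of the list was -0.07 with 4OHT (-0.01 over all genes) and -0.09 with Shld1 (-0.004 over all genes). With arrays centred on the 75th percentile the 4OHT median was 0.007 (0.065 over all genes). Without the dimmest 40% of genes it was -0.09 (-0.04 over the genes kept). Tff1 and Ctsd, a breast cancer marker and a lysosomal protease, are among the most used readouts of estrogen: Tff1 differed by -0.01 with 4OHT (SE 0.16) and Ctsd by -0.22 (SE 0.16). The count of 4 was 0 to 4 over the alternatives.

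Among 17 measured receptors and coregulators, 0 were called with either agent. With 4OHT 0 had an unadjusted p under 0.05 (4.99% of all genes), with a median difference of 0.05. With Shld1 the AP-1 subunit gene Jun did (4.34% of all genes), at 0.41 (SE 0.18). The coactivator genes Ncoa1, Ncoa2 and Ncoa3 were all above background; the first 2 differed by -0.07 (SE 0.16) and -0.05 (SE 0.15) with 4OHT, and Ncoa3 by less than 0.01 (SE 0.15).

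Stc2 is also known as a target of the integrated stress response. Beside it, 14 genes of that response or of the unfolded protein response were read. With 4OHT 13 of the 14 were lower than in untreated cells, and 0 were called. The list median was -0.26, against -0.01 over all genes and -0.04 over genes without the dimmest 40%. Over all genes 4.99% had an unadjusted p under 0.05. Lower values with an unadjusted p under 0.05 were found for 5, and for 2 to 6 over the alternatives. Ddit3, which encodes the stress factor CHOP, was at 7.51 and 7.67 without drug, 6.86 and 7.09 with 4OHT, and 7.38 and 7.16 with Shld1. As for Stc2, the treated arrays were all below the untreated ones. Ddit4 and Chac1 differed by -0.53 (SE 0.14) and -0.46 (SE 0.16) with 4OHT. With Shld1, where Stc2 differed by -0.45, also 13 of the 14 were lower. There 1 had an unadjusted p under 0.05 (4.34% of all genes). The list median was -0.07, and it was -0.22 without Shld1 replicate 1 and -0.02 without Shld1 replicate 2. With Shld1 Ddit4 differed by -0.04 (SE 0.14) and Dnajb9, a gene of the unfolded protein response, by -0.45 (SE 0.18). The part of these responses in the values of Stc2 was not tested.

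**Figure D4:**
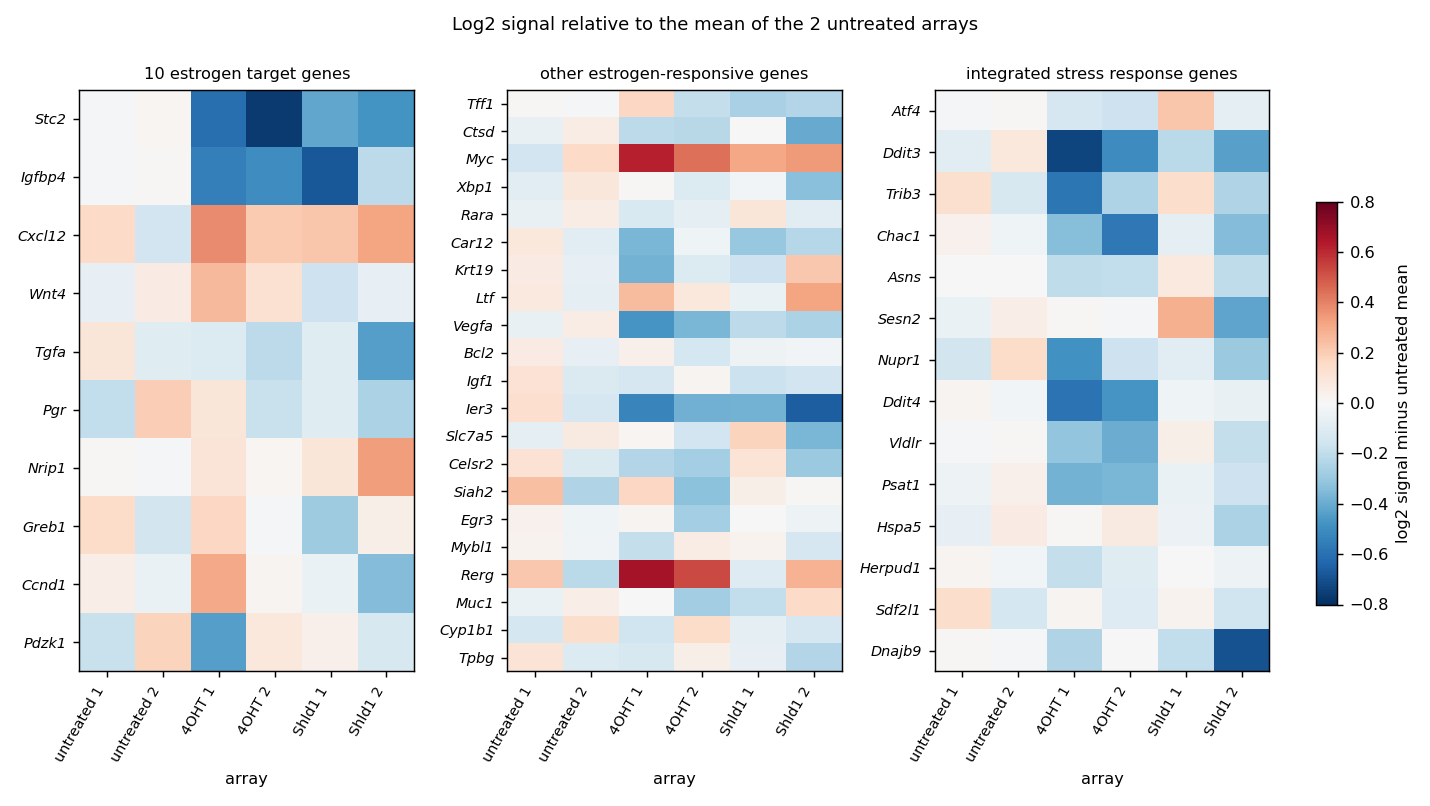
Colours give each gene's log2 signal on an array minus its mean over the 2 untreated arrays (columns, the 6 arrays; rows, genes of 3 lists; scale from -0.8 to 0.8). Stc2 and Igfbp4 are blue on all 4 treated arrays, Myc red and Ier3 blue in the wider list, and the stress genes Ddit3, Ddit4 and Chac1 blue on both 4OHT arrays.

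The genes whose pattern over the 6 arrays was most like those of Stc2 and Igfbp4, the members above background that varied most (SD 0.316 and 0.293), were taken from 12840 other genes above background. Likeness was the root-mean-square difference in log2 signal after each gene's own mean was subtracted, and the 6 arrays of 3 groups share their controls. For Stc2 these were Rbak (0.0826), a zinc finger gene, Senp8 (0.0958), a protease of the ubiquitin-like modifier NEDD8, and Pla2g5 (0.104), a secreted phospholipase. Rbak was at 4.58 and 4.66 without drug, 4.13 and 3.97 with 4OHT, and 4.40 and 4.12 with Shld1. For Igfbp4 they were 4930432K21Rik (0.0546), Ttc39c (0.0894) and Stra8 (0.109), a gene of entry into meiosis. Stra8 was at 7.30 and 7.32 without drug, 6.84 and 6.95 with 4OHT, and 6.92 and 7.07 with Shld1.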

How the data were processed

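Total RNA was labelled with biotin and hybridised to single-colour Affymetrix arrays, per the labels. The deposited table covers 35556 probe sets on each array, on a log2 scale as read from its range; how the authors corrected, summarised and normalised the signals was not found in the sources read. A tool, limma 3.14, is named in the submitters' processing notes, with no role. Values were used as deposited. Of the probe sets, 21789 had 1 gene symbol in the platform annotation, 1621 several and 12146 none; the brightest per gene was kept, giving 19938 genes.

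Groups were compared with limma 3.58.1 in R 4.3.3 (group means fitted to the 6 arrays together, eBayes moderation, two-sided, Benjamini-Hochberg over all genes; 3 residual and 6.77 prior degrees of freedom). The fit was tested on simulated data, with planted changes larger than any member difference and the same spread for every gene. That test does not show how well differences of the size seen here are found. Groups of 2 arrays limit precision: the median SE was 0.160. The members and gene lists were chosen with earlier results of these data known. Named genes are the members, Esr1, Esr2, up to 3 genes per list and comparison with the smallest unadjusted p under 0.05, and the 3 most similar to each of 2 members; the coactivators, Tff1, Ctsd, Egfr, Pappa, Igfbp2, Stc1, Ier3 with 4OHT and marker genes were named after their values were seen. Genes of a list with no probe set of 1 symbol were not analysed here. RefSeq promoters were matched by symbol. Alternatives were other moderation, normalization, filtering, probe set averaging, 2-group fits, array weights, a replicate block and leaving out arrays.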

Additional observations from a re-analysis of the deposited data

Results flagged for a closer look

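Wnt4 was the member whose agents lay on opposite sides of the untreated arrays. Both 4OHT arrays were above both untreated arrays and both Shld1 arrays below them, a difference between the agents of 0.308 on the log2 scale (SE 0.14; limma, unadjusted p = 0.0585, adjusted p = 0.894). The nearest Shld1 and untreated arrays differed by under 0.001, and the gene's dimmer probe set was lower with 4OHT than without. With both probe sets averaged, the difference between the agents was 0.026, and the mean of either agent lay below that of untreated (-0.113 and -0.139). On the dimmer probe set the Shld1 arrays were far apart, at 2.78 and 3.62, on either side of the untreated arrays.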

How the results depend on the processing

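No member was called under any of the alternatives run. Of 471 recomputed member differences, 228 were identical to 3 decimals, since many settings change only the error; of the other 243, 27 turned sign. The differences of Stc2 and Igfbp4 from untreated stayed negative throughout. The number of members with an unadjusted p under 0.05 was 1 with either agent when arrays were centred on the 75th percentile. The share of all genes was then 4.3% with 4OHT and 3.26% with Shld1. Between the agents it was 1 with intensity trend and robust moderation (5.92% of all genes), where 1 gene, not a member, was called. It was 2 with quantile normalization (7.27%), 2 with cyclic loess (7.25%) and 1 with the replicate block (4.86%). Without the dimmest 40% of genes it was 2 of 7 members tested (6.39% of the genes kept). Cyclic loess, the crossed numbers and leaving out both narrower arrays were chosen after seeing the data.

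Directions turned for members near 0. With 4OHT, Pgr was 0.035 under 75th percentile centring and Wnt4 -0.113 with probe sets averaged. Without both narrower arrays Greb1 was -0.010 and Pdzk1 0.082 with 4OHT, Pdzk1 0.038 with Shld1, and between the agents Pgr was -0.082, Igfbp4 0.181, Cxcl12 -0.011, Tgfa -0.115 and Pdzk1 0.044. Leaving out single arrays gave, with 4OHT, -0.236 to 0.157 for Pgr, -0.068 to 0.226 for Greb1 and -0.439 to 0.082 for Pdzk1; with Shld1, -0.371 to 0.022 for Pgr, -0.286 to 0.046 for Greb1 and -0.224 to 0.134 for Pdzk1; and between the agents, -0.003 to 0.273 for Pgr, -0.314 to 0.156 for Igfbp4, -0.058 to 0.111 for Cxcl12, -0.063 to 0.281 for Tgfa and -0.395 to 0.127 for Pdzk1. The cause of these turns was not tested.

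Deviations of same-numbered arrays correlated at 0.05 (untreated and 4OHT), -0.08 (untreated and Shld1) and -0.19 (4OHT and Shld1). The narrower arrays, 4OHT replicate 1 and Shld1 replicate 2, have different numbers, so these correlations cannot settle whether replicates were paired. The replicate block called 0 genes in each comparison, with 785, 748 and 968 genes at an unadjusted p under 0.05 against 995, 866 and 1117 without it. With crossed numbers 0 genes and 0 members were called between the agents, with 1407 genes at an unadjusted p under 0.05.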

Other observations

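Proteins that work with the members were measured too. Of 18 such partners, 0 were called in any comparison, and 0 had an unadjusted p under 0.05 with either agent against untreated (0 to 2 over the alternatives). Between the agents 3 did, against 5.6% of all genes. Cdk6, a kinase partner of cyclin D1, was higher with 4OHT by 0.60 (SE 0.16, limma adjusted p = 0.844). Pgrmc1, a membrane-associated progesterone receptor component, differed by -0.49 (SE 0.17). Scarb1, the lipoprotein receptor that Pdzk1 anchors, differed by -0.41 (SE 0.17). Cdk6 was at 6.26 and 6.18 without drug, 6.40 and 6.68 with 4OHT, and 6.04 and 5.84 with Shld1, highest on the 4OHT arrays and lowest on the Shld1 arrays. Pappa, the protease that cleaves Igfbp4 protein and is inhibited by stanniocalcin 2, was below background, at 2.94 to 3.29.

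Among 18 measured relatives of the members, 0 were called. Greb1l, the paralog of Greb1, was at 4.25 and 4.58 without drug, 4.05 and 3.68 with 4OHT, and 4.34 and 4.18 with Shld1. Its 4OHT difference was -0.55 (SE 0.18, limma adjusted p = 0.96). Its signal on 4OHT replicate 2 was below background, and the values come from the brighter of 2 probe sets. With 4OHT 2 relatives had an unadjusted p under 0.05 (4.99% of all genes), and 1 did with the mean of all probe sets. Slc9a3r1, the scaffold gene NHERF1 related to Pdzk1 and itself estrogen-induced in breast cells, differed by 0.34 with 4OHT (SE 0.14) and by 0.45 between the agents (SE 0.14). Wnt7b differed by -0.36 between the agents (SE 0.15). Igfbp2, of the same binding protein family as Igfbp4, differed by -0.23 with 4OHT (SE 0.15), and Stc1, the relative of Stc2, was below background.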
